A study of Mus musculus with 20 samples.

Results

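The type I interferon-stimulated genes described here are 34 genes, chosen by symbol in the authors' table of read counts, out of 46983 genes in that table. All 34 symbols were found, each once, and all 34 passed the filter on low counts in every comparison; the lowest count of any of them in any library was 67. They fall into 8 roles: signalling and transcription, sensors of RNA and DNA, the OAS family, the IFIT family, dynamin-like GTPases, the ISG15 system with its neighbouring ubiquitin ligases, effectors acting on entry, release or nucleotides, and other induced genes.

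Type I interferons bind a receptor made of IFNAR1 and IFNAR2, whose kinases JAK1 and TYK2 phosphorylate STAT2. STAT2 and IRF9 are subunits of the factor ISGF3, which binds interferon-stimulated response elements (ISREs) in front of the genes it induces. In tumours the resulting genes are read as a sign of interferon exposure in leukocytes, in stroma and in cancer cells alike, since most nucleated cells carry the receptor.

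The libraries came from orthotopic pancreatic tumours, made by injecting cultured KPC murine pancreatic cancer cells into the pancreas of C57BL/6 mice and collected after 2 weeks. The 4 groups, with 5 libraries each, were sorted leukocytes from IL33-/- hosts (sorted IL33KO), sorted leukocytes from wild-type hosts (sorted WT), bulk tumour from IL33-/- hosts (bulk IL33KO) and bulk tumour from wild-type hosts (bulk WT). The hosts received no treatment, and the lack of IL33 is a property of the host, not of the injected cells, which were KPC cells in all groups. The labels name 5 mice of each genotype but tie no library to a mouse, and p-values below measure the spread between libraries, which may be partly technical. The study thus compares hosts lacking the alarmin IL-33 with wild-type hosts, in CD45+ cells taken out on magnetic beads and in the whole tumour.

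The libraries held 51.3 M to 81.0 M counts in genes (median 59.5 M), and a count of 3 corresponded to 0.0326 to 0.0686 CPM (counts scaled by library size, the unit of all levels below). Il33 itself was counted in every library, with 705 to 1123 counts in sorted IL33KO and 272 to 1084 in sorted WT, and with 3043 to 4452 counts in bulk IL33KO and 4001 to 4726 in bulk WT. Counts per gene do not show which exons were read, so Il33 does not check the genotype labels, and IL33KO below means the libraries labelled so. The selection for CD45 could be checked: all 10 pan-leukocyte markers were called higher in sorted than in bulk material in hosts of both genotypes, while 10 tumour epithelium markers still summed to 1960 to 3000 CPM in sorted IL33KO and 1140 to 2850 CPM in sorted WT, against 7010 to 9950 CPM in bulk IL33KO and 8340 to 10500 CPM in bulk WT. Sorted IL33KO 3 stood apart, with 66000 CPM of 21 acinar markers and 30800 CPM of 10 neutrophil markers, against 1170 to 11600 and 3200 to 6630 CPM in the other sorted IL33KO libraries. Among the bulk libraries, bulk WT 5 had 14400 CPM of acinar markers, against 60.3 to 65.8 CPM in the other bulk WT libraries, and bulk IL33KO 3 had 2780 CPM, against 29.2 to 279 CPM in the others of its group.

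RefSeq windows of 300 bases (GRCm38.p6; 250 before to 50 after a start site) were available for the promoters of 25 of the 34 members. The ISRE core GAAANNGAA, searched on both strands with overlapping matches allowed, stood in the windows of 14 of these 25 members (56%), against 9.76% of all 27025 genes with a window. A STAT dimer motif, TTCNNNGAA, which reads the same on both strands, stood in 7 of 25 (28%), against 9.55% of all genes. The stretches below come from members chosen among the 14 with the core, to show its place. Each gives the 150 bases before the start site, read along the gene, with the ISRE core in capitals. Samhd1, Isg20, Irf7, Irf9, Cmpk2, Oasl1, Oasl2, Ifit2, Xaf1, Dtx3l and Herc6, also described below, had no ISRE core in any of their windows. A match is a string of letters, not a measured binding site.
Isg15: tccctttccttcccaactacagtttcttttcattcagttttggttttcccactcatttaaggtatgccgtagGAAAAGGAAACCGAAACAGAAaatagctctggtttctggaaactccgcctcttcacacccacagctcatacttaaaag
Ifit1: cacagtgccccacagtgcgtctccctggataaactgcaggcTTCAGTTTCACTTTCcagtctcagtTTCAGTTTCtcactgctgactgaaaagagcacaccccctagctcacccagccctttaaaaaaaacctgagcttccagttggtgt
Rsad2: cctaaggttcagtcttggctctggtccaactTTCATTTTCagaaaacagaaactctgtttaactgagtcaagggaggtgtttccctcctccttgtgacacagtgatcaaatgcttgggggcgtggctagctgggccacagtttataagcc
Oas1a: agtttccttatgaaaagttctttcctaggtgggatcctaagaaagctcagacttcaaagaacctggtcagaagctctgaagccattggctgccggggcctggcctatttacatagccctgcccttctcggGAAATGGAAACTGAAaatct
Bst2: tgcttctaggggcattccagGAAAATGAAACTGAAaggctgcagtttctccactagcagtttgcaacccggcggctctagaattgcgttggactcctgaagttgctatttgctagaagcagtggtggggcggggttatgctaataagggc

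These stretches lie at chr4:156200819-156200968 on the minus strand for Isg15, chr19:34640739-34640888 on the plus strand for Ifit1, chr12:26456453-26456602 on the minus strand for Rsad2, chr5:120907526-120907675 on the minus strand for Oas1a and chr8:71537473-71537622 on the minus strand for Bst2. In Isg15 the core occurs 3 times in overlap, beginning 78, 72 and 66 bases before the start site. Ifit1 also has 3 matches, on the opposite strand, beginning 109, 103 and 84 bases before its start. Rsad2 has 1 match, also on the opposite strand, beginning 119 bases upstream. Bst2 has a pair of overlapping matches beginning 130 and 124 bases upstream, and Oas1a a pair beginning 20 and 14 bases upstream. Eif2ak2 differs in place: its overlapping pair lies after the annotated start site, in positions 11 to 40 of the transcript shown here (chr17:78882533-78882562, minus strand).
Eif2ak2: tccgccggGAAAACGAAACAGAAgagaacc

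Many members were higher in the sorted leukocytes than in the bulk tumour. The largest log2 fold changes were those of Trim30a (+2.22), Rsad2 (+2.10) and Dhx58 (+1.66) in IL33KO hosts, and of Rsad2 (+2.73), Trim30a (+2.55) and Isg15 (+2.47) in WT hosts. The negative binomial quasi-likelihood test of edgeR, with Benjamini-Hochberg adjustment over 18145 genes and a threshold of 0.05, called 16 of the 34 members higher and 3 lower in sorted than in bulk material of IL33KO hosts, and 20 higher and 4 lower in WT hosts. Over all genes tested, 31.3% were called higher and 31.7% lower in IL33KO hosts, and 33.7% higher and 34.3% lower in WT hosts. The members' shares were 47.1% higher and 8.82% lower in IL33KO hosts, and 58.8% higher and 11.8% lower in WT hosts. The median log2 fold change of the members was +0.46 in IL33KO hosts and +0.65 in WT hosts, beside +0.02 and −0.00 for all genes tested. The 10 pan-leukocyte markers had medians of +3.20 in IL33KO hosts and +3.51 in WT hosts, and no member reached the lowest of these markers, which stood at +2.72 and +3.07. In bulk samples, fewer cells of a type and less RNA per cell cannot be told apart. The comparisons in IL33KO and in WT hosts share no library, though they share the estimate of spread, and 16 members were called higher in both and 2 lower in both. Without the sorted libraries numbered 3, the counts were 15 higher and 3 lower in IL33KO hosts and 18 higher and 5 lower in WT hosts, and without the bulk libraries numbered 5 they were 18 and 4, and 23 and 5. The shares of all genes called in both hosts, or without these libraries, are not given here. These counts therefore describe the members alone.

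**Figure D1:**
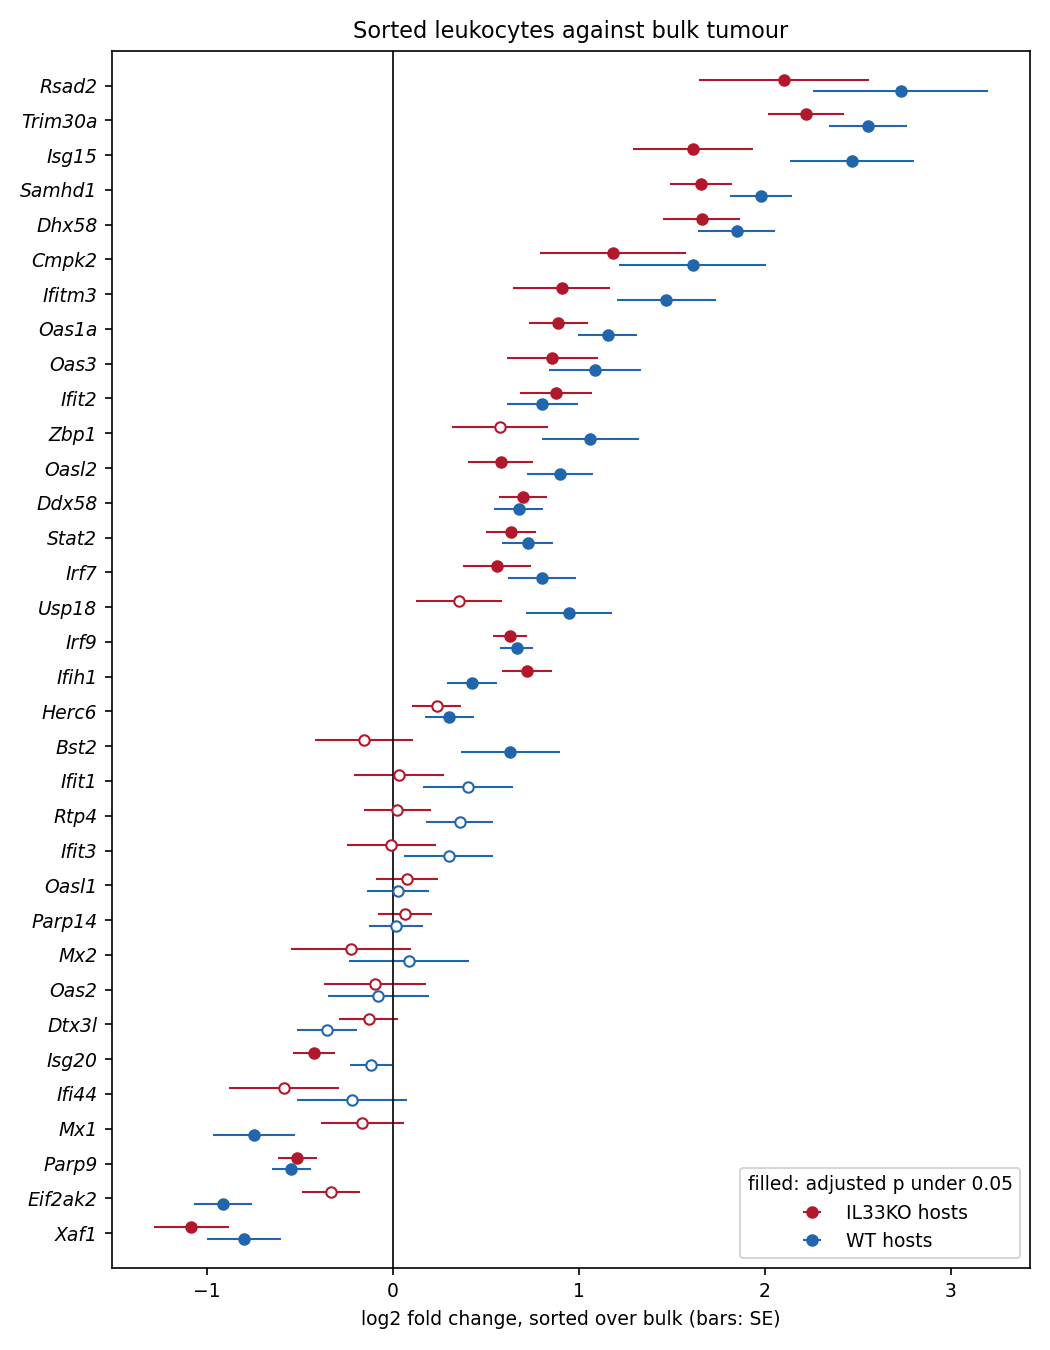
Log2 fold change of each of the 34 members, sorted leukocytes over bulk tumour, in IL33KO hosts (red) and WT hosts (blue), with standard errors; filled points passed an adjusted p of 0.05 in edgeR. Rsad2, Trim30a, Isg15, Samhd1 and Dhx58 lie between +1.61 and +2.73 in both hosts, and Xaf1 at −1.08 in IL33KO hosts and −0.80 in WT hosts.

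The 3 signalling genes moved together and by a moderate amount, and all 3 were called higher in both hosts. Stat2, a subunit of ISGF3, had 89.3, 84.6, 71.3, 97.6 and 81.5 CPM in sorted IL33KO, against 51.7, 55.9, 40.7, 61.2 and 63 CPM in bulk IL33KO. In WT hosts it had 91.2, 92.5, 71.3, 78.8 and 74.5 CPM sorted, against 43.2, 43.1, 49.9, 44.1 and 66.4 CPM in bulk. Every sorted library lay above every bulk library of its genotype, with log2 fold changes of +0.64 (SE 0.14) in IL33KO hosts and +0.73 (SE 0.14) in WT hosts (edgeR adjusted p = 0.000464 and 0.000107). Irf9, the DNA-binding subunit of ISGF3, was among the steadiest members.
It measured 92.8, 98.7, 98.3, 101 and 82.2 CPM in sorted IL33KO, against 57.1, 64.8, 48.1, 65.6 and 69.6 CPM in bulk IL33KO. Sorted WT libraries gave 96.5, 94.1, 98, 82.9 and 90.8 CPM, against 58, 58.4, 59.9, 55.9 and 59.1 CPM in bulk WT. The groups did not overlap, and Irf9 rose by log2 +0.63 (SE 0.09) in IL33KO hosts and +0.67 (SE 0.09) in WT hosts (edgeR adjusted p = 5.61e-06 and 2.19e-06). Its exons overlap those of Rnf31 on the same strand in the annotation. Irf7, the factor that amplifies interferon production, read 110, 109, 136, 175 and 119 CPM in sorted IL33KO, against 75.8, 85.5, 64.7, 113 and 103 CPM in bulk IL33KO. In sorted WT it read 169, 138, 148, 116 and 144 CPM, against 72.7, 54.7, 88.2, 81.2 and 113 CPM in bulk WT. The IL33KO groups overlapped and the WT groups did not; the log2 fold changes were +0.56 (SE 0.18) and +0.80 (SE 0.18), with edgeR adjusted p = 0.0122 and 0.000729. Exons of Irf7 overlap Phrf1 on the opposite strand, and the strand setting of the counting is not given in the sources used here. The same limit applies to Dhx58 (overlapped by Dhx58os), Usp18 (by Gm44148) and Oasl1 (by Gm13822), described below.

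Of the 5 sensors, Ddx58 (RIG-I), Ifih1 (MDA5) and Dhx58 (LGP2), the RNA helicases that detect viral RNA, rose in both hosts, and Dhx58 rose most. Dhx58 had 33.8, 38.4, 44, 46.4 and 36 CPM in sorted IL33KO, against 9.86, 10.8, 10.4, 12.6 and 19.1 CPM in bulk IL33KO. Its WT libraries had 48.3, 39.5, 45.3, 33.6 and 36.7 CPM sorted, against 9.09, 8.98, 11.4, 8.95 and 18 CPM in bulk. The lowest sorted library was thus above the highest bulk library in each host, and replicate 5 was the highest bulk library of each genotype. The rise was 3.16-fold in IL33KO hosts (log2 +1.66, SE 0.21, edgeR adjusted p = 1.25e-06) and 3.60-fold in WT hosts (log2 +1.85, SE 0.21, edgeR adjusted p = 2.45e-07). Ddx58 rose 1.63-fold and 1.60-fold, and Ifih1 1.65-fold and 1.34-fold, in IL33KO and WT hosts. Zbp1, a sensor of Z-form nucleic acid linked to necroptosis, passed in WT hosts (log2 +1.06, SE 0.26, edgeR adjusted p = 0.00136) and had +0.58 (SE 0.26, edgeR adjusted p = 0.0581) in IL33KO hosts.

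Eif2ak2 went the other way. This gene (ENSMUSG00000024079.4, chromosome 17, 78852564 to 78882573, minus strand, GENCODE M21 on GRCm38) encodes PKR, the kinase that halts translation on double-stranded RNA. It read 31.1, 32.8, 35.9, 34.4 and 32.2 CPM in sorted IL33KO, against 44.6, 44.1, 28.9, 53.8 and 37.8 CPM in bulk IL33KO. In WT hosts it read 25.9, 24.5, 27.7, 24.5 and 23.5 CPM sorted, against 53.7, 64.1, 36.8, 48.2 and 34.8 CPM in bulk. The sorted WT libraries all lay below the bulk WT libraries, and Eif2ak2 fell 1.88-fold there (log2 −0.91, SE 0.16, edgeR adjusted p = 4.25e-05). In IL33KO hosts the groups overlapped (log2 −0.33, SE 0.16, edgeR adjusted p = 0.0713), and the call was made there with upper-quartile scaling (edgeR adjusted p = 0.0143), with limma voom, and without bulk IL33KO 3 (log2 −0.44, edgeR adjusted p = 0.0142), bulk WT 2 or bulk WT 5.

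The 5 members of the OAS family, which make oligoadenylates that switch on RNase L or are their catalytically altered relatives, split: Oas1a, Oas3 and Oasl2 rose in both hosts, and Oas2 and Oasl1 were called in neither. Oas1a had 57.6, 75.5, 86.5, 86.7 and 60.2 CPM in sorted IL33KO, against 34.3, 38.9, 32.1, 43.9 and 48.2 CPM in bulk IL33KO. It had 89.4, 80.6, 94.7, 70.9 and 71.9 CPM in sorted WT, against 32.5, 29.6, 36.6, 32.9 and 51.2 CPM in bulk WT. No sorted library overlapped bulk libraries of its genotype, and Oas1a rose 1.85-fold in IL33KO hosts and 2.23-fold in WT hosts (edgeR adjusted p = 8.05e-05 and 3.38e-06). Oas1a has several near copies in the mouse genome, so its level is uncertain. Oas2 had log2 fold changes of −0.10 (SE 0.27) in IL33KO hosts and −0.08 (SE 0.27) in WT hosts.

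Among the IFIT genes, whose proteins bind foreign RNA, Ifit2 rose 1.84-fold in IL33KO hosts and 1.75-fold in WT hosts, while Ifit1 and Ifit3 passed in neither. Ifit1 had 20.2, 17.5, 33, 33.1 and 18.8 CPM in sorted IL33KO, against 16.2, 23.4, 20, 19.9 and 40.2 CPM in bulk IL33KO. Sorted WT libraries gave 27.6, 23.7, 33.6, 17.4 and 30.5 CPM of Ifit1, against 17.9, 19.4, 20.9, 16.9 and 25.1 CPM in bulk WT. The groups overlapped in both hosts, and the highest value of all was bulk IL33KO 5. The log2 fold changes of Ifit1 were +0.03 (SE 0.24; −0.07 with upper-quartile scaling) in IL33KO hosts and +0.41 (SE 0.24) in WT hosts, with edgeR adjusted p = 0.905 and 0.143. Ifit3 had 25.3, 22.6, 38.3, 36.2 and 26 CPM in sorted IL33KO, against 21.7, 33.5, 23.1, 23.6 and 47.2 CPM in bulk IL33KO. Its sorted WT values were 36.7, 27.3, 34, 20.7 and 31.7 CPM, against 18.9, 23.8, 24.5, 17.4 and 37.3 CPM in bulk WT. Replicate 5 was again the highest bulk library in each genotype, and the groups overlapped (log2 −0.01, SE 0.24, and +0.30, SE 0.24; edgeR adjusted p = 0.981 and 0.271). Without the bulk libraries numbered 5, both genes were called higher in WT hosts (Ifit1 log2 +0.50, edgeR adjusted p = 0.0427; Ifit3 log2 +0.51, edgeR adjusted p = 0.0267). Ifit3 has a near-identical neighbour, so reads that align equally well to both are not in its count.

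The dynamin-like GTPases Mx1 and Mx2 were low, and C57BL/6 mice are known to carry a defective Mx1 allele. Mx1 had 11.6, 9.68, 5.86, 12.9 and 10.9 CPM in sorted IL33KO, against 7.01, 14.7, 8.69, 13.1 and 13.5 CPM in bulk IL33KO. In sorted WT it had 9.75, 9.42, 5.84, 10.4 and 6.94 CPM, against 14.1, 15.9, 15.5, 13.8 and 11.7 CPM in bulk WT. The WT groups did not overlap and Mx1 fell 1.68-fold there (log2 −0.75, SE 0.22, edgeR adjusted p = 0.00591), whereas in IL33KO hosts the values overlapped (log2 −0.16, SE 0.22, edgeR adjusted p = 0.538). Replicate 3 was the lowest sorted library of both genotypes for Mx1, and also for Mx2 (1.60 CPM in sorted IL33KO 3 and 1.27 CPM in sorted WT 3) and Oas2 (17.8 and 16.8 CPM).

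Of the ISG15 system and the ubiquitin ligases grouped with it, Isg15 and Trim30a rose strongly in both hosts. Isg15 (ENSMUSG00000035692.6, chromosome 4, 156199424 to 156200818, minus strand), the ubiquitin-like modifier, had 89.5, 99.5, 103, 148 and 100 CPM in sorted IL33KO, against 22.2, 28.5, 36.9, 29.6 and 59 CPM in bulk IL33KO. It had 174, 154, 117, 135 and 192 CPM in sorted WT, against 18.3, 16, 30.5, 16.8 and 57.6 CPM in bulk WT. No groups of 1 genotype overlapped; Isg15 rose 3.06-fold in IL33KO hosts (log2 +1.61, SE 0.32, edgeR adjusted p = 0.000252) and 5.54-fold in WT hosts (log2 +2.47, SE 0.33, edgeR adjusted p = 2.39e-06). Trim30a (ENSMUSG00000030921.16, chromosome 7, 104409025 to 104465193, minus strand), a TRIM protein that in mice restrains Toll-like receptor signalling, had 108, 113, 114, 129 and 95.9 CPM in sorted IL33KO, against 20.3, 20.8, 17.3, 23.3 and 38 CPM in bulk IL33KO. Its sorted WT libraries had 125, 112, 150, 101 and 105 CPM, against 16.6, 18.4, 21.7, 14.8 and 29.5 CPM in bulk WT. All sorted values were far above all bulk values, and Trim30a had the smallest p of the members in both hosts (4.67-fold and 5.87-fold higher in IL33KO and WT hosts, edgeR adjusted p = 3.32e-08 and 4.06e-09). The Trim30 family holds related copies, so its level is uncertain.

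Usp18, the protease that removes ISG15 and also damps the receptor, read 20.1, 19.1, 29, 32.1 and 21.1 CPM in sorted IL33KO, against 18.7, 18.5, 16, 15.1 and 26.5 CPM in bulk IL33KO. In sorted WT it read 34.2, 22.9, 29.5, 20.7 and 27.2 CPM, against 10.6, 10.7, 15.9, 9.55 and 23 CPM in bulk WT. The groups overlapped in both hosts, and Usp18 passed in WT hosts (log2 +0.95, SE 0.23, edgeR adjusted p = 0.00141) with +0.36 (SE 0.23, edgeR adjusted p = 0.186) in IL33KO hosts. Parp9, which pairs with the ligase Dtx3l, fell in both hosts (log2 −0.51 and −0.54, SE 0.11 each). Dtx3l had −0.13 and −0.35 and passed in neither in edgeR. In WT hosts, however, Dtx3l was called lower in DESeq2 (adjusted p = 0.0452) and limma voom (adjusted p = 0.000281). The exons of Parp9 and Dtx3l overlap on opposite strands. Herc6, the mouse ligase for ISG15, passed in WT hosts by a narrow margin (log2 +0.31, SE 0.13, edgeR adjusted p = 0.0471), and the call was lost in DESeq2, with the other scalings (log2 +0.22 with upper-quartile scaling) and without any 1 of several libraries.

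The 6 effectors acting on entry, release or nucleotides held the widest range. Rsad2 (ENSMUSG00000020641.15, chromosome 12, 26442746 to 26456452, minus strand), or viperin, which makes a chain-terminating nucleotide, had 33, 29.3, 78.8, 80.5 and 29.8 CPM in sorted IL33KO, against 7.14, 7.76, 7.87, 11 and 24.7 CPM in bulk IL33KO. It had 72.9, 40.7, 74.1, 27.7 and 72.3 CPM in sorted WT, against 5.05, 6.05, 13.4, 4.36 and 14.5 CPM in bulk WT. Sorted libraries fell into a lower and a higher set in each genotype, yet all lay above the bulk libraries. Rsad2 rose 4.30-fold in IL33KO hosts (log2 +2.10, SE 0.46, edgeR adjusted p = 0.000585) and 6.64-fold in WT hosts (log2 +2.73, SE 0.47, edgeR adjusted p = 4.53e-05).
Cmpk2, a mitochondrial nucleotide kinase whose gene neighbours Rsad2, also varied widely between libraries. It had 18.7, 16.4, 40.9, 24.5 and 14 CPM in sorted IL33KO, against 6.16, 8.70, 7.31, 8.47 and 19.6 CPM in bulk IL33KO. In sorted WT it had 25.2, 16.9, 24.8, 11.9 and 20.6 CPM, against 4.15, 4.40, 7.84, 3.27 and 12.8 CPM in bulk WT. The groups overlapped through bulk replicate 5, and Cmpk2 passed in both hosts (log2 +1.19, SE 0.39, and +1.61, SE 0.40; edgeR adjusted p = 0.013 and 0.00141). Without sorted IL33KO 3 its call in IL33KO hosts was lost (log2 +0.87, edgeR adjusted p = 0.0561).

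Samhd1, a deoxynucleotide hydrolase that starves viruses of building blocks, had the highest CPM of the members in sorted cells. It measured 640, 845, 766, 941 and 710 CPM in sorted IL33KO, against 244, 251, 174, 269 and 300 CPM in bulk IL33KO. Sorted WT libraries gave 845, 765, 826, 712 and 961 CPM, against 172, 183, 228, 164 and 293 CPM in bulk WT. The groups were far apart, with rises of 3.15-fold in IL33KO hosts and 3.95-fold in WT hosts (edgeR adjusted p = 8.95e-08 and 6.61e-09). Ifitm3, which blocks viral entry from endosomes, rose 1.88-fold and 2.77-fold in IL33KO and WT hosts. Bst2, or tetherin, which holds budding virus at the cell surface, passed in WT hosts (log2 +0.63, SE 0.27, edgeR adjusted p = 0.042), and had −0.15 (SE 0.27, edgeR adjusted p = 0.628) in IL33KO hosts. The Bst2 call was lost with upper-quartile scaling (edgeR adjusted p = 0.0961) and when any of 9 single libraries was left out, among them bulk WT 2 (log2 +0.46, edgeR adjusted p = 0.108), while without bulk WT 5 its value was +1.08 (edgeR adjusted p = 2.31e-05). Isg20, an RNA exonuclease, fell in IL33KO hosts (log2 −0.42, SE 0.11, edgeR adjusted p = 0.00288) and had −0.12 (SE 0.11) in WT hosts.

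None of the 4 other induced genes rose. Xaf1, a partner of the apoptosis inhibitor XIAP, fell 2.12-fold in IL33KO hosts and 1.74-fold in WT hosts (edgeR adjusted p = 0.000129 and 0.0017). Its level was 35.0 ± 3.55 CPM in sorted IL33KO and 74.2 ± 26.7 CPM in bulk IL33KO, and 35.3 ± 1.56 CPM in sorted WT and 61.4 ± 21.3 CPM in bulk WT (SD, n = 5 each). Ifi44, Rtp4 and Parp14 passed in neither host, with log2 fold changes between −0.58 and +0.36. In edgeR, 7 members passed in hosts of 1 genotype alone: Usp18, Bst2, Herc6, Zbp1, Mx1 and Eif2ak2 in WT hosts, and Isg20 in IL33KO hosts. The edgeR test of the difference between the hosts called none of these 7. The list depends on the tool. In IL33KO hosts Zbp1 passed as higher in DESeq2 (adjusted p = 0.0459) and limma voom (adjusted p = 0.000638). Usp18 passed there in limma voom (adjusted p = 0.0351) and not in DESeq2 (adjusted p = 0.186).

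**Figure D2:**
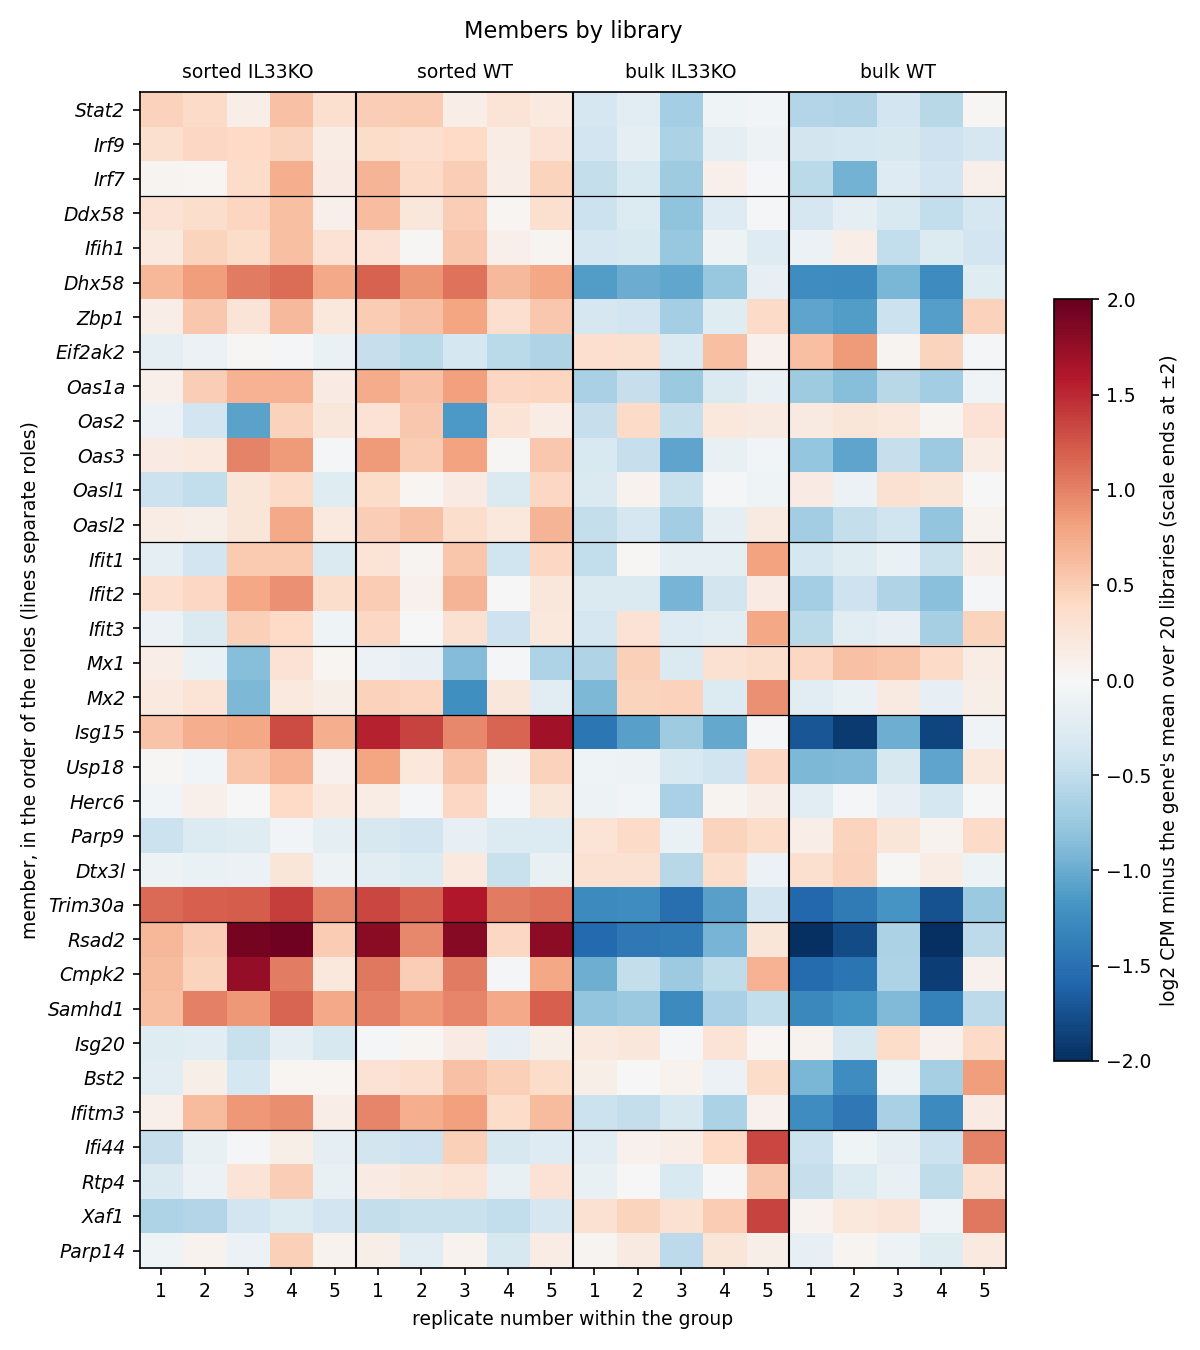
Heat map of the 34 members (rows, by role) in the 20 libraries (columns, by group), as log2 CPM minus the gene's mean over all libraries. Isg15, Trim30a, Rsad2, Samhd1 and Dhx58 are high in all sorted libraries, and the bulk libraries numbered 5 are high for Ifi44 and Xaf1.

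The second question was whether the members differed between IL33KO and WT hosts within the sorted leukocytes. EdgeR called none of the 34 at an adjusted p of 0.05, where it called 0.012% of the 16731 genes tested. An unadjusted edgeR p under 0.05 was found for 4 members, beside 2156 of the 16731 genes. The median log2 fold change of the members was −0.04, with 13 positive and 21 negative, beside +0.02 for all genes tested. In DESeq2, 1 member passed as higher and 2 as lower, beside 1.34% and 3.08% of genes. In limma voom, run with weights for each sample, 1 member passed in each direction, beside 1.12% of genes higher and 1.27% lower. In the edgeR fit the 95% interval of the log2 difference lay inside a 2-fold change in both directions for 33 of the 34 members, the exception being Rsad2 (−1.05 to +0.68). The 4 members with the smallest p were Eif2ak2, Bst2, Isg20 and Isg15.

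Eif2ak2, whose values are given above, was higher in all 5 sorted IL33KO libraries, at 31.1 to 35.9 CPM, than in any sorted WT library, at 23.5 to 27.7 CPM. The difference was 1.33-fold (log2 +0.41, 95% interval +0.26 to +0.56), with an adjusted p of 0.144 in edgeR, 6.35e-05 in DESeq2 and 0.0195 in limma voom. A predicted gene, Gm26637, overlaps its exons on the opposite strand. Bst2 (ENSMUSG00000046718.7, chromosome 8, 71534255 to 71537456, minus strand), which in mice is also a surface marker of plasmacytoid dendritic cells, went the opposite way. It had 134, 168, 121, 160 and 159 CPM in sorted IL33KO, against 189, 196, 233, 216 and 199 CPM in sorted WT. The groups did not overlap (log2 −0.46, 95% interval −0.69 to −0.24), and the adjusted p was 0.151 in edgeR, 0.00258 in DESeq2 and 0.0442 in limma voom. Isg20 (ENSMUSG00000039236.18, chromosome 7, 78913424 to 78920396, plus strand) had 46.8, 47.1, 40.5, 48.8 and 44.1 CPM in sorted IL33KO, against 53.6, 56.3, 61.4, 49.4 and 59.6 CPM in sorted WT. Here too the groups did not overlap, with sorted IL33KO 4 just under sorted WT 4 (log2 −0.29, 95% interval −0.46 to −0.12; adjusted p 0.181 in edgeR, 0.015 in DESeq2 and 0.0702 in limma voom). Eif2ak2 was thus the 1 member whose IL33KO libraries all lay above the WT libraries, where 1.04% of genes did so, and Bst2 and Isg20 the 2 whose libraries all lay below, where 2.65% of genes did so.

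Isg15 was lower in 4 of the 5 sorted IL33KO libraries than in any sorted WT library, the fifth being sorted IL33KO 4 at 148 CPM. Its mean was 108 ± 22.7 CPM in sorted IL33KO and 154 ± 30.2 CPM in sorted WT (SD, n = 5 each; log2 −0.51, SE 0.17, edgeR adjusted p = 0.262). The other members differed less or had wider intervals: Stat2 (+0.07), Irf9 (+0.04) and Irf7 (−0.13) had log2 differences near 0, as did Ifit1 (−0.10), Ifit3 (−0.01), Oas1a (−0.14), Usp18 (−0.14) and Rsad2 (−0.18), and Mx1 had +0.28; none of these passed. Macrophage markers moved with the genotype in the same libraries: the sum of 14 genes was 12600 to 18900 CPM in sorted IL33KO and 20900 to 23700 CPM in sorted WT, with no marker at 0 and 0 of 14 called by edgeR. The 10 plasmacytoid dendritic cell markers summed to 166 to 540 CPM in sorted IL33KO and 193 to 292 CPM in sorted WT. The part of either cell type in the differences of Eif2ak2, Bst2, Isg20 and Isg15 was not tested.

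**Figure D3:**
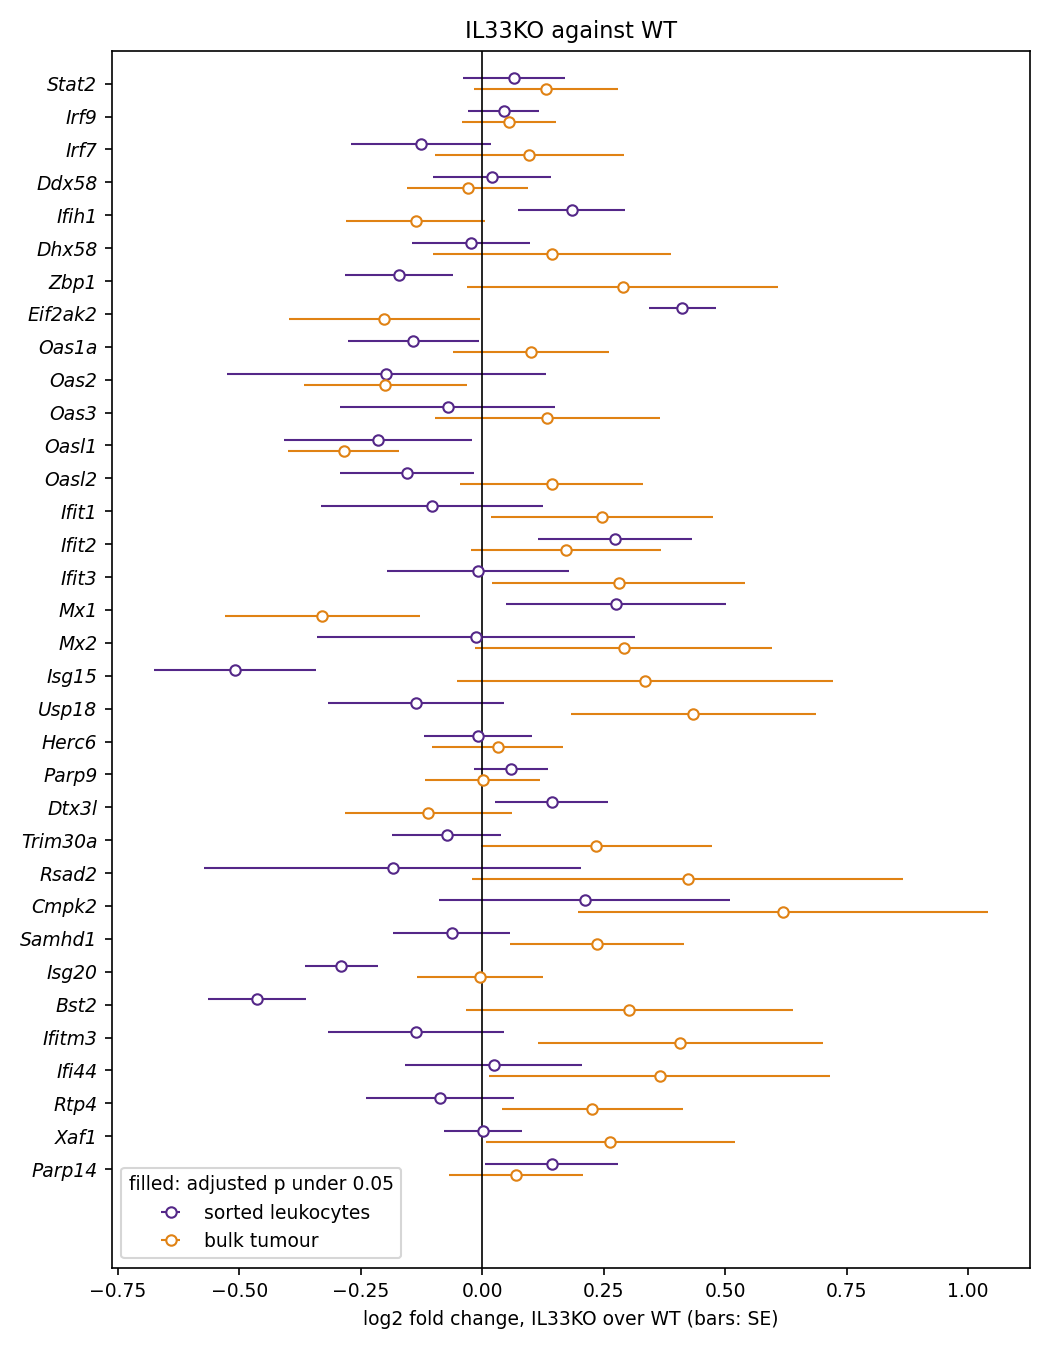
Log2 fold change of each member, IL33KO over WT, in sorted leukocytes (purple) and in bulk tumour (orange), with standard errors; no point is filled because none passed an adjusted p of 0.05 in edgeR. In sorted leukocytes Eif2ak2 (+0.41), Bst2 (−0.46), Isg20 (−0.29) and Isg15 (−0.51) lie farthest from 0 for their error.

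In bulk tumour the same comparison gave no call either. EdgeR called 0 of 34 members and 0% of the 17258 genes tested. Its unadjusted p was under 0.05 for 1 member, Oasl1, beside 1098 of the 17258 genes. The members' median was +0.14, with 26 positive and 8 negative, beside +0.01 for all genes. No member had groups that did not overlap, against 0.359% of genes higher and 0.301% lower. DESeq2 called no member, with 0.119% of genes called higher and 0.178% lower. Weighted limma voom called 11 members higher and 1 lower, against 11.1% of all genes called higher and 8.41% lower. It gave bulk WT 1 a weight of 6.09 and bulk WT 5 a weight of 0.218. The interval in edgeR lay inside a 2-fold change in both directions for 28 members, and reached beyond it for Isg15, Rsad2, Ifi44, Bst2, Cmpk2 and Ifitm3.

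The 4 members with the smallest p in bulk were Oasl1, Usp18, Mx1 and Cmpk2, the last 3 with the library values given above. Oasl1 (ENSMUSG00000041827.15, chromosome 5, 114923240 to 114937915, plus strand), which in mice represses translation of Irf7, had 41.1, 52.3, 36.9, 49 and 47.4 CPM in bulk IL33KO, against 55.9, 46.4, 62.1, 59.3 and 50.4 CPM in bulk WT. Its groups overlapped (log2 −0.28, SE 0.11, edgeR adjusted p = 0.724). In sorted leukocytes it had 37.3, 35.7, 59, 65.2 and 42.4 CPM in IL33KO, against 64.5, 51.2, 56.4, 41.2 and 66.5 CPM in WT, again in overlap. Usp18 had log2 +0.43 (SE 0.25), Cmpk2 +0.62 (SE 0.42) and Mx1 −0.33 (SE 0.20), each with an edgeR adjusted p of 0.724. For Bst2, bulk IL33KO libraries read 168, 154, 162, 143 and 199 CPM, against 82, 65.9, 145, 97.9 and 276 CPM in bulk WT. Bulk WT thus held both the lowest and the highest value (log2 +0.30, SE 0.34). Without bulk WT 5 the log2 values were +0.69 for Usp18, +1.02 for Cmpk2, +0.75 for Bst2 and +0.78 for Isg15, which had +0.34 with that library, and edgeR still called no member. Isg20 had 62.9, 64.2, 54.1, 66.8 and 56.5 CPM in bulk IL33KO, against 57.9, 43.9, 70.9, 58.6 and 72 CPM in bulk WT, with a log2 difference of −0.00 (SE 0.13).

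The pan-leukocyte markers summed to 729 to 1450 CPM in bulk IL33KO (median 954) and 614 to 1390 CPM in bulk WT (median 616), with no marker at 0, and all 10 had positive log2 fold changes (median +0.25), none of them called. Other cell types moved more in the same libraries. The 14 fibroblast markers summed to 1450 to 5160 CPM in bulk IL33KO (median 2830) and 1060 to 2490 CPM in bulk WT (median 1450), and all 14 had positive log2 fold changes (median +0.90). The 10 B cell markers summed to 28.1 to 216 CPM in bulk IL33KO and 14.6 to 79.4 CPM in bulk WT, all 10 with positive log2 fold changes (median +1.18). The 16 acinar markers that passed the filter were all negative (median −2.08). That median rests largely on bulk WT 5, where 21 acinar markers summed to 14400 CPM, against 60.3 to 65.8 CPM in the other bulk WT libraries. In bulk IL33KO they summed to 29.2 to 2780 CPM. No marker of these lists was called, and the part of these cell types in the members' values was not tested.

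The members' bulk values shifted when leukocyte markers were added to the fit or single libraries were left out. EdgeR called no member under any of these settings, and the cause of the shifts was not tested. With the mean of the pan-leukocyte markers as a covariate, 14 members were positive and 20 negative, and the members' median was −0.01, beside +0.02 for all genes. Rsad2 then had −0.01, Isg15 +0.13, Usp18 +0.24, Bst2 +0.18 and Cmpk2 +0.27 on the log2 scale. Without bulk IL33KO 5, 22 members were positive and 12 negative (median +0.02), with Rsad2 at −0.05, where it had +0.42 with that library, and Ifit1 at −0.02, where it had +0.25. Without bulk WT 5, 27 members were positive and 7 negative (median +0.32, beside +0.02 for all genes), and 11 had an unadjusted p under 0.05. EdgeR called 19 of all genes in that fit, and how many of all genes had an unadjusted p under 0.05 is not given here.

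**Figure D4:**
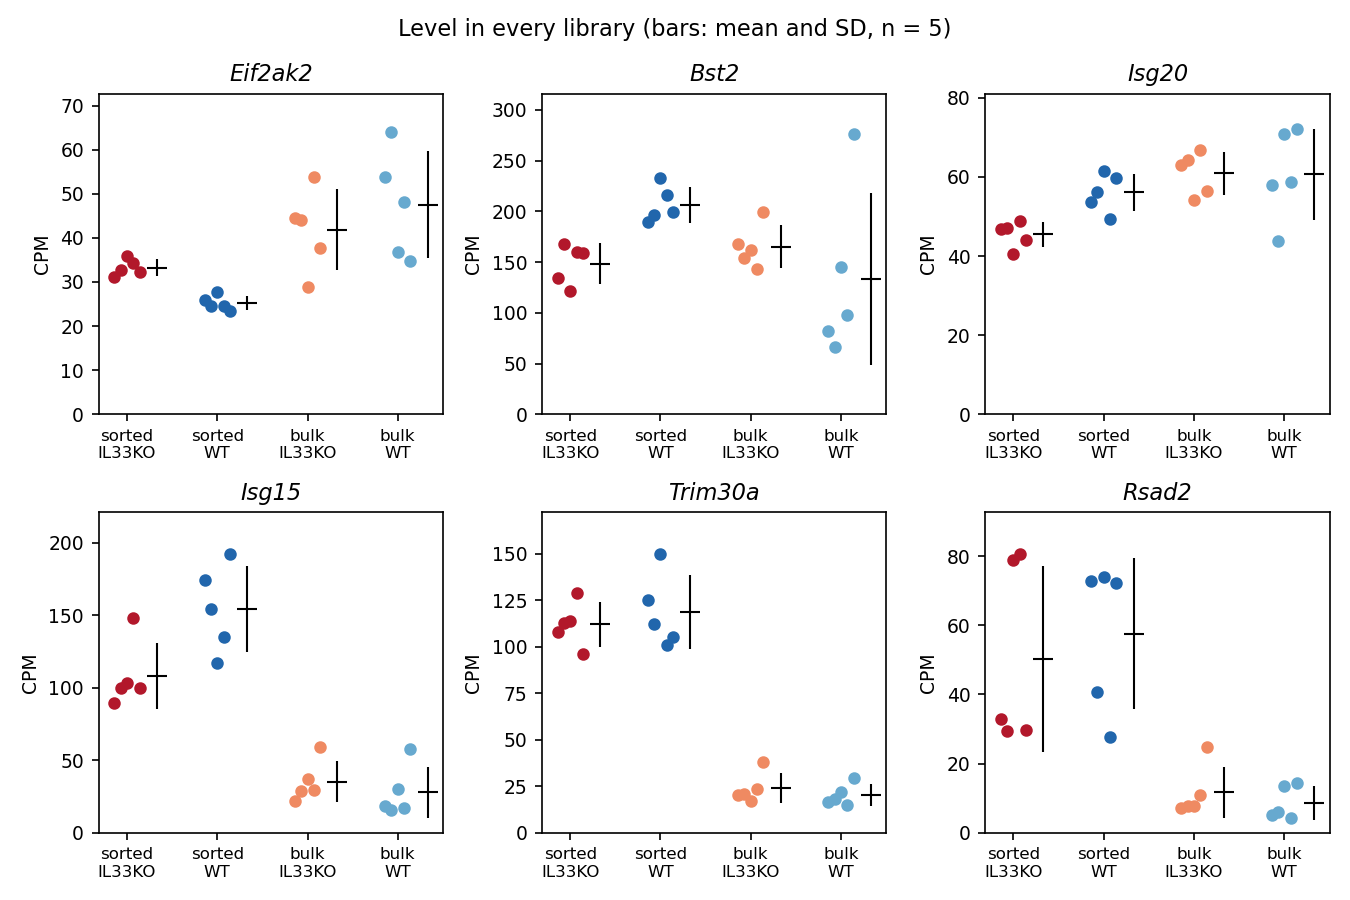
CPM of 6 members in every library, with the mean and SD of each group (n = 5). The sorted IL33KO and sorted WT points do not overlap for Eif2ak2, Bst2 and Isg20, and the sorted points of Trim30a and Rsad2 all lie above the bulk points.

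Whether the host difference itself differed between sorted and bulk material was tested as an interaction over the 20 libraries. EdgeR called 0 of 34 members and 0% of the 18145 genes, with 2 members at an unadjusted p under 0.05, beside 2028 of the 18145 genes. DESeq2 called no member, with 0.0165% of genes called higher and 0.00552% lower. Weighted limma voom called 1 member higher and 8 lower, against 8.48% of all genes called higher and 10.3% lower. The smallest p belonged to the same 4 genes as in sorted leukocytes, which enter both comparisons with the same libraries. The log2 interaction was +0.58 (SE 0.22) for Eif2ak2, −0.79 (SE 0.38) for Bst2, −0.31 (SE 0.16) for Isg20 and −0.86 (SE 0.45) for Isg15, with edgeR adjusted p = 0.445, 0.446, 0.457 and 0.461. Leaving out bulk WT 5 moved Bst2 to −1.24 and gave its call (edgeR adjusted p = 0.0484). The median over the members was −0.27, beside −0.01 for all genes.

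Within a group, single libraries set the level of many members at once. Sorted IL33KO 4 held the highest value of its group for 28 of 34 members (82.4%), where it did so for 16.3% of all genes, and sorted WT 4 held the lowest value of its group for 23 members (67.6%, against 17.5%). Bulk IL33KO 5 was highest for 24 members (70.6%, against 26.4%) and bulk IL33KO 3 lowest for 21 (61.8%, against 27.4%). Bulk WT 5 was highest for 25 members (73.5%, against 36.7%) and bulk WT 4 lowest for 18 (52.9%, against 18.2%). The members of a library are not independent of each other, and these counts describe the libraries.
The sum of all 34 was 2870 to 4170 CPM in sorted IL33KO and 3080 to 3890 CPM in sorted WT, and 1720 to 2710 CPM in bulk IL33KO and 1660 to 2720 CPM in bulk WT. The bulk libraries numbered 5 had the highest pan-leukocyte sums too, at 1450 CPM in bulk IL33KO 5 and 1390 CPM in bulk WT 5, against 729 to 1020 and 614 to 1070 CPM in the others of their groups. In sorted IL33KO 4 the pan-leukocyte sum was 9440 CPM, inside the range of 7980 to 10300 CPM of its group, and the plasmacytoid sum of 166 CPM was the lowest of its group. Its T cell sum was the highest of its group, at 1230 CPM against 512 to 904 CPM in the others, and so was its summed level of 15 interferon ligand genes, at 44 CPM against 12.1 to 28.4 CPM. Of these 15 ligand genes, 13 had no counts in that library. The only 1 that passed the filter was Ifng, the type II interferon, so the sum does not measure type I ligands. Sorted WT 4 had the lowest sum of members in its group, at 3080 CPM, and the lowest pan-leukocyte sum, at 7960 CPM, and T cell sum, at 590 CPM. Its ligand sum was the lowest too, at 19.5 CPM, with 12 of the 15 ligand genes at 0 counts. Bulk WT 5 was also the library with the acinar markers given above. The part of these cell types and ligands in the library patterns was not tested. The spread of single members within a group, as the highest over the lowest library, had medians of 1.5 in sorted IL33KO, 1.46 in sorted WT, 1.83 in bulk IL33KO and 1.77 in bulk WT, beside 1.54, 1.62, 1.62 and 1.74 for all genes. Mx2 reached 3.25 in sorted WT, and Isg15, Bst2, Rsad2 and Cmpk2 were among the members with wide ranges in bulk WT.

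**Figure D5:**
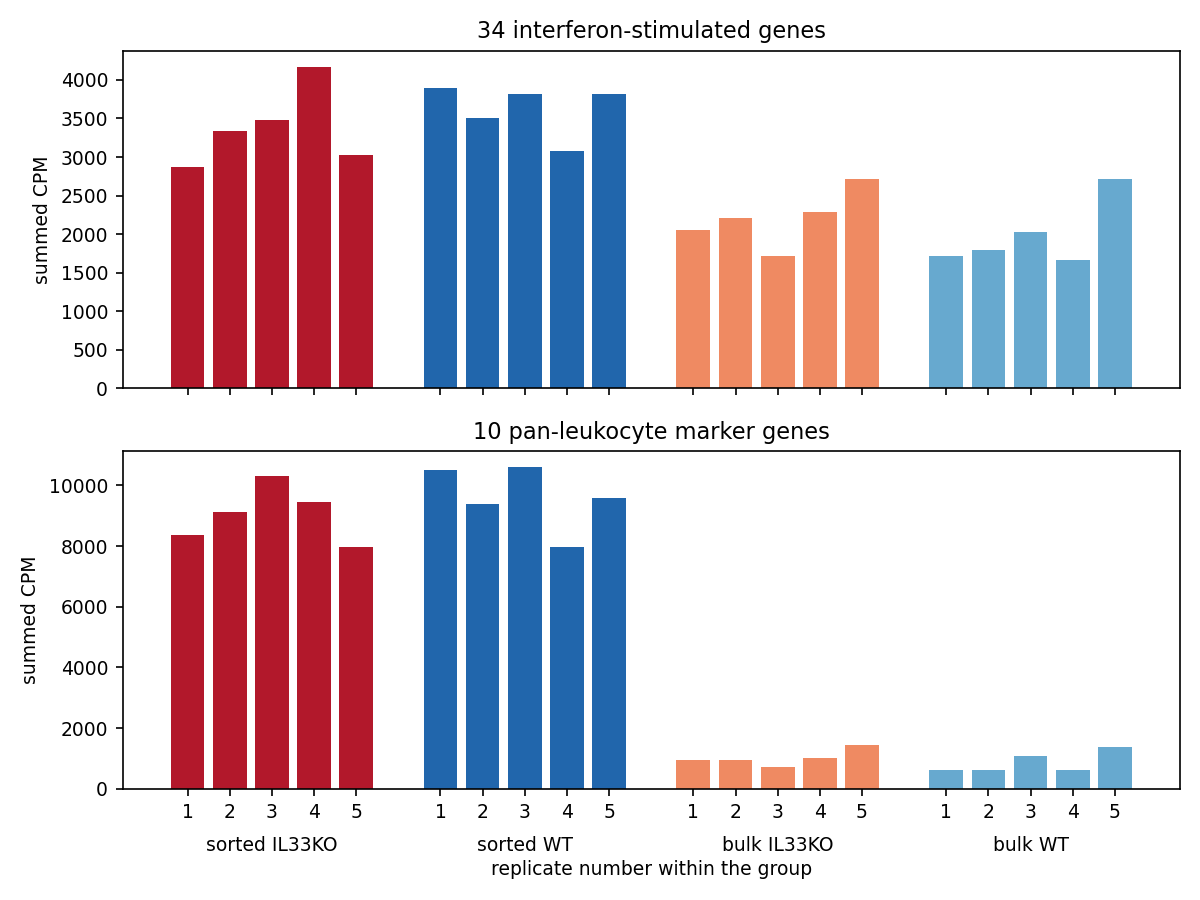
Summed CPM of the 34 members (top) and of 10 pan-leukocyte markers (bottom) in each library. Sorted IL33KO 4 has the highest sum of members at 4170 CPM, and the bulk libraries numbered 5 lead their groups in both panels.

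Levels of different members can be set side by side once divided by exon length. In CPM per kilobase of annotated exon, Ifitm3, Bst2 and Isg15 held ranks 1, 2 and 3 in all 4 groups. Ifitm3 stood at 574 ± 151 in sorted IL33KO and 635 ± 98.4 in sorted WT, and at 305 ± 61.4 in bulk IL33KO and 229 ± 122 in bulk WT (SD, n = 5 each). Bst2 had 164 ± 22.1 and 229 ± 19.5 in sorted IL33KO and sorted WT, and 183 ± 23.4 and 148 ± 94.1 in bulk IL33KO and bulk WT. Isg15 had 143 ± 30.1 and 204 ± 40 in sorted IL33KO and sorted WT, and 46.6 ± 18.9 and 36.8 ± 23.4 in bulk IL33KO and bulk WT. The means of Bst2 and Isg15 differed by less than either SD in sorted IL33KO, and in sorted WT by less than the SD of Isg15 but more than that of Bst2. Mx2 was last in every group, at 0.806 to 0.989 CPM per kilobase. Measured by the longest transcript in place of all exons, Samhd1 ranked above Isg15 in every group.

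The other genes of the pathway were taken from lists that were also chosen with results of these data known. Of 15 ligand genes, 1 passed the filter, and it was Ifng, the type II interferon. Ifnb1, the first type I ligand made in many cells, had 0 to 6 counts in sorted IL33KO and 0 to 3 in sorted WT, and 0 to 3 counts in bulk IL33KO and 0 to 4 in bulk WT. At a floor of 3 counts, Ifnb1 cannot be compared between groups. Ifng stood at 24.1 ± 12.6 CPM in sorted IL33KO and 31.2 ± 10.8 CPM in sorted WT, and at 3.17 ± 1.39 CPM in bulk IL33KO and 2.67 ± 2.09 CPM in bulk WT (SD, n = 5 each). It was 7.61-fold higher in sorted than bulk material of IL33KO hosts and 11.7-fold higher in WT hosts (edgeR adjusted p = 3.96e-05 and 4.63e-06).

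The subunits of the receptor differed. Ifnar1 stood at 118 ± 10.1 CPM in sorted IL33KO and 118 ± 2.93 CPM in sorted WT, and at 108 ± 20.7 CPM in bulk IL33KO and 119 ± 13.3 CPM in bulk WT, and was called in no comparison. Ifnar2 rose 1.58-fold in sorted over bulk material of IL33KO hosts and 1.98-fold in WT hosts (edgeR adjusted p = 5.89e-06 and 2.92e-08). Between hosts, Ifnar2 had 80.5 to 108 CPM in sorted IL33KO and 108 to 133 CPM in sorted WT, without overlap (log2 −0.23, SE 0.09, edgeR adjusted p = 0.318). Of the 16 receptor and signalling genes, which include Stat2 and Irf9, 11 rose (68.8%) and 1 fell in sorted over bulk material in each host. Of 18 tested genes that sense nucleic acid upstream of interferon, 14 rose and 1 fell in IL33KO hosts, and 12 rose and 2 fell in WT hosts. The adaptor Myd88 had the smallest p in both hosts (log2 +1.57 and +1.84), and the largest log2 fold changes were those of Tlr9, an endosomal receptor for CpG DNA, in IL33KO hosts (+3.39) and of Unc93b1, which carries such receptors to the endosome, in WT hosts (+3.65). Of 22 interferon gamma targets, 5 rose and 8 fell in IL33KO hosts (22.7% and 36.4%) and 8 rose and 7 fell in WT hosts (36.4% and 31.8%). Among all genes, 31.3% rose and 31.7% fell in IL33KO hosts and 33.7% rose and 34.3% fell in WT hosts, so the counts of the interferon gamma targets lay near the background. Of these targets, the MHC class II genes Cd74 (log2 +2.10 and +2.50) and H2-Ab1 (+2.17 and +2.71) rose, and the tryptophan-degrading enzyme gene Ido1 (−2.30 and −2.62) fell. None of these genes was called between IL33KO and WT hosts in sorted or in bulk material by edgeR.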

How the data were processed

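RNA-seq was read in 20 libraries, 5 in each of 4 groups, grouped by the sample titles. The authors deposited raw counts per gene, not normalized, with 5 summary lines (26.1 to 40.5% of reads), which entered neither the library sizes nor the tests. A second deposited table holds scaled signal, the counts after size-factor scaling per the file headers, and served only as an alternative. The submitters' processing notes name Picard, HTSeq, DESeq and the build mm10; aligner and strandedness are not given in the sources used.

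Counts were tested with edgeR 4.0.16 (quasi-likelihood, robust, TMM, filterByExpr, R 4.3.3), with each material fitted alone for IL33KO against WT and all 20 libraries for sorted against bulk and the interaction. P-values were adjusted by Benjamini-Hochberg over all genes tested, two-sided, at 0.05. CPM share 1 TMM scale over 20 libraries. Alternatives were DESeq2 1.42.0, limma 3.58.1 voom, other scalings, no filter, a replicate block, single libraries left out and a leukocyte covariate; leaving out both sorted libraries numbered 3, or both bulk libraries numbered 5, was chosen after seeing the data. SE is the size of the log2 fold change over the square root of F. The tests were also run on simulated counts, drawn independently for each gene and library. These lack the shared shifts of single libraries described above, and the outcome is not given here.

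The members and the gene lists were chosen with earlier results of these data known. Values for every library are given for 12 fixed members and for the 4 members with the smallest p per comparison; of each pathway list at most 4 genes are named, besides Ifnb1, Ifng, Ifnar1, Ifnar2 and 1 other, which is not reported here. No pair of replicates matched within sampling noise (lowest chi-square per gene 18.3). Reads that align to several places stand on a summary line of their own and are not in the gene counts. Coordinates are from GENCODE M21 (GRCm38), promoter windows from RefSeq (GRCm38.p6).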

Additional observations from a re-analysis of the deposited data

Results flagged for a closer look

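Of 136 sets of 5 libraries (34 members in 4 groups), 14 (10.3%) had 1 library set apart from the other 4. The rule sets apart about 1 in 20 sets of independent, normally distributed values. Members move together within a library, and the share of all genes set apart is not given here. The count therefore describes single libraries and is not a result about the members. In sorted IL33KO 4 the library was far above the others for Isg15 (148 CPM, others 89.5 to 103), Oasl2 (277, others 179 to 195), Parp14 (274, others 181 to 207) and Dtx3l (127, others 97.5 to 99.7). Mx2 was far below in sorted IL33KO 3 (1.6 CPM, others 3.23 to 3.59), and Ifi44 far above in sorted WT 3 (13.6 CPM, others 7.36 to 8.23).

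In bulk IL33KO 5 the values set apart were those of Rsad2 (24.7 CPM, others 7.14 to 11), Ifi44 (24.7, others 8.42 to 13), Cmpk2 (19.6, others 6.16 to 8.70), Xaf1 (121, others 58.6 to 67.5) and Trim30a (38, others 17.3 to 23.3). In bulk WT 5 they were those of Ifi44 (19.6 CPM, others 7.28 to 9.22), Dhx58 (18, others 8.95 to 11.4) and Xaf1 (98.6, others 45.6 to 57.1). The pan-leukocyte sums of these 2 bulk libraries are given above; their part in these values was not tested.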

How the results depend on the processing

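Across the alternatives other than single libraries left out, 678 of 725 member fold changes kept their direction and side of the threshold, 24 gained and 10 lost a call, and 13 changed sign. IL33KO against WT in sorted leukocytes had 2 genes called; DESeq2 called 566, with 1 member higher and 2 lower, and limma voom 400, with 1 and 1. In bulk 0 genes were called; DESeq2 called 50, limma voom 3371 with 11 members higher and 1 lower, and the fit without the bulk libraries numbered 5 called 6. For the interaction, also 0, DESeq2 size factors in edgeR gave 1, DESeq2 4, limma voom 3406 with 1 member higher and 8 lower, and the fits without the sorted libraries numbered 3 and without the bulk libraries numbered 5 gave 1 and 3. Limma voom called 5 members lower in sorted than bulk material of IL33KO hosts, against 3. The causes were not tested.

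Signs changed for Ifit3 in sorted leukocytes between hosts (−0.008; 0.004 with upper-quartile scaling, 0.023 in limma voom), and between materials of IL33KO hosts for Ifit1 (0.035; −0.074 with upper-quartile scaling, −0.094 without the sorted libraries numbered 3) and Ifit3 (−0.007; 0.03 in limma voom, 0.018 in the authors' scaled signal, 0.218 without the bulk libraries numbered 5). In bulk between hosts, Irf9 was −0.009 without the bulk libraries numbered 5, and with the leukocyte covariate Irf7 was −0.063, Stat2 −0.003, Oas1a −0.044 and Rsad2 −0.007. The median level per kilobase of longest transcript was 18.2 in sorted IL33KO and 17.8 in sorted WT, and 13.6 in bulk IL33KO and 12.9 in bulk WT, against 15.7, 15.8, 10.9 and 10.6 by all exons.

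With single libraries left out, the count of genes called ran from 1 to 3 in sorted leukocytes, from 0 to 19 in bulk (19 without bulk WT 5) and from 0 to 27 for the interaction (27 without bulk WT 5), the members called lower for the interaction from 0 to 1, and those called lower between materials of IL33KO hosts from 3 to 5 (5 without bulk WT 5). Signs changed for Ifit3 in sorted leukocytes (−0.118 to 0.078), for Ifit1 (−0.096 to 0.302) and Ifit3 (−0.115 to 0.218) between materials of IL33KO hosts, and in bulk for Irf7 (−0.016 to 0.238), Ifit1 (−0.02 to 0.365) and Rsad2 (−0.045 to 0.686).

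Libraries with the same replicate number were not alike throughout. In none of 4 pairings of groups did every same-numbered pair correlate above 0.1. A library matched its own number best in 3 of 5 cases between the sorted groups and in 1 of 5 in each other pairing. This check cannot exclude a pairing or a shared batch. With the replicate block, 1 gene was called in sorted leukocytes, and Ifit3 between materials of IL33KO hosts was 0.03.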
